A study of Homo sapiens with 4 samples.

Results

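The genes described here are the inhibitor of DNA binding genes ID1, ID2, ID3 and ID4 and 5 genes of bone morphogenetic protein (BMP) signalling: the ligands BMP2 and BMP4, the secreted antagonist GREM1, the membrane pseudoreceptor BAMBI and the inhibitory SMAD gene SMAD6. They were taken by gene symbol under a rule that holds no measured value, although with earlier results of these data known, and all 9 were found among the 23459 genes of the count files. The cells were hTERT RPE-1, a wild-type human line from the retinal pigment epithelium made immortal with telomerase. The cells of all 4 libraries were held for 48 h in medium with 0.1% serum and then given 200 μM merbarone, a catalytic inhibitor of type II DNA topoisomerases (TOP2), for 4 h (2 libraries) or 8 h (2 libraries). Since every library was treated and untreated libraries were not analysed here, each comparison is between 8 h and 4 h of exposure, and the time in the drug cannot be told apart from the longer time in low serum.

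BMPs are secreted ligands that bring type I and type II serine/threonine kinase receptors together on the cell surface. The receptors phosphorylate SMAD1, SMAD5 and SMAD9, which enter the nucleus with SMAD4 and activate target genes. The ID genes are the best known of these targets. ID proteins have a helix-loop-helix domain but no DNA-binding region, so that they hold E proteins such as TCF3, TCF4 and TCF12 in dimers that cannot bind DNA, and they are mostly associated with proliferating and undifferentiated cells. SMAD6 and BAMBI are targets of the pathway that also inhibit it, SMAD6 inside the cell and BAMBI at the membrane, while GREM1 binds BMP2 and BMP4 outside the cell.

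At 8 h, BMP4, BAMBI, SMAD6 and ID2 were lower than at 4 h, GREM1 and ID3 were higher, ID1 and BMP2 did not pass the test, and ID4 had no read in any library. These are values of whole cultures, in which fewer cells with a transcript and less transcript per cell cannot be told apart. A gene passed the test with a Benjamini-Hochberg adjusted p below 0.05 in edgeR's quasi-likelihood test over all genes, and it was a differentially expressed gene (DEG) when its log2 fold change (log2FC, 8 h over 4 h) was also above 1 in size. Of the 9 members, 8 were tested, having exceeded a CPM of 1 (the count scaled to library size) in 2 or more libraries. Among these 8, 2 passed as higher and 4 as lower, where 19.9% of the 12559 genes tested passed as higher and 18.8% as lower. No member was a higher DEG and 2 (SMAD6 and ID2) were lower DEGs, against 1.45% and 3.88% of all genes. Both 8 h libraries lay above both 4 h libraries for 3 members and below for 4, which was the case for 34.8% and 34.9% of all genes. The median log2FC was −0.36 over the 8 members and 0.00 over all genes (−0.00241), and with 8 genes nothing particular to the group is read from these shares.

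The balance of directions over all genes rests on the scaling. With library size alone in place of the TMM factors (trimmed mean of M-values) the median of all genes moved to −0.11, and 1698 genes passed as higher and 3289 as lower, in place of 2500 and 2367. With an offset for the trend between fold change and abundance there were 263 higher and 338 lower DEGs, in place of 182 and 487. Each of the 6 members that passed had the same direction under both settings.

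**Figure D1:**
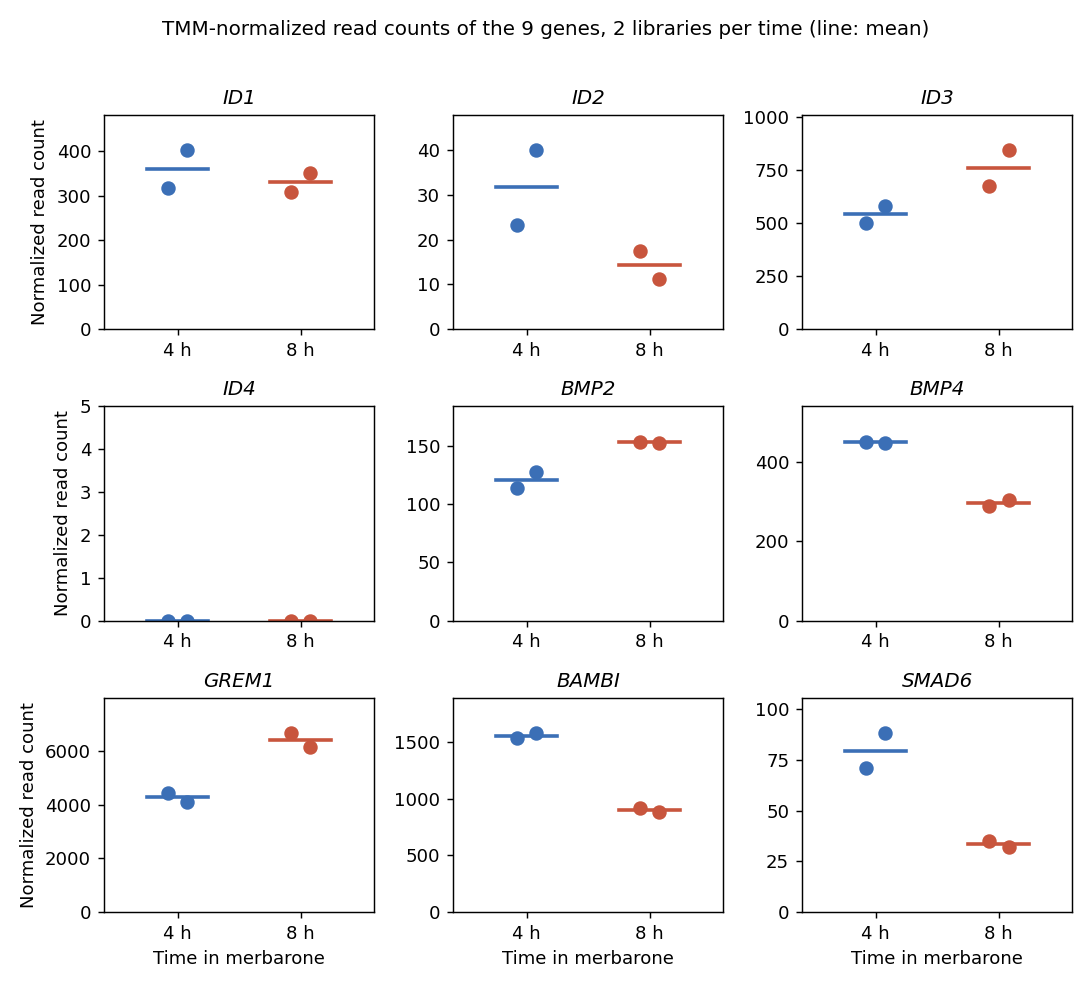
TMM-normalized read counts (y axis, linear, from 0) of the 9 genes at 4 h (blue) and 8 h (red); each point is 1 library and each line the mean of 2. The 8 h points of BMP4, BAMBI, SMAD6 and ID2 lie below both 4 h points, those of GREM1, ID3 and BMP2 lie above, those of ID1 overlap, and ID4 is at 0 in all 4 libraries.

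The depth was 10324697 and 10184486 counts at 4 h against 9669035 and 8064450 at 8 h. Below, values given as counts alone are raw read counts. Values called normalized, and means given with an SD, are TMM-normalized counts, scaled to the mean effective library size of 9586677 counts. Of 13 markers of the retinal pigment epithelium, MITF (669 to 882 counts), OTX2 (132 to 193), RDH5 (43 to 75), SERPINF1 (22 to 30) and PMEL (7 to 12) passed the CPM filter. The other 8 did not: RPE65 had 2 to 7 counts, BEST1 2 to 6, TYRP1 1 to 3, RLBP1 0 to 2, LRAT and TTR 0 or 1, and TYR and DCT 0 in every library. The summed level of the 13 was 1052 and 989.97 normalized counts at 4 h against 1194 and 1113 at 8 h. Most of each sum was MITF, with 792 and 723 normalized counts at 4 h against 887 and 831 at 8 h. Of 7 markers of epithelial and mesenchymal cells, EPCAM had 0 counts and CDH1 0 or 1, while the keratin genes KRT8 (3042 to 3966 counts), KRT18 (1927 to 3881) and KRT7 (587 to 707), the cadherin gene CDH2 (3048 to 3950) and the filament gene VIM (88366 to 91660) were detected. Of these, KRT18 was lower at 8 h (log2FC −0.51, edgeR adjusted p = 3.72e-05), and KRT7 (log2FC 0.46, edgeR adjusted p = 0.000616) and VIM (log2FC 0.36, edgeR adjusted p = 0.000623) were higher. Their part in the results below was not tested.

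The stretch of 250 bases before the start of the gene is shown for a pair of members that fell (SMAD6 and BAMBI). It is also shown for ID3, which rose, and ID1, which did not pass. SMAD proteins reach their targets through short motifs, and bases further from the start were not searched for them. The sequences are those of RefSeq on GRCh38.p14, a later build than the hg19 used for the reads, and are written 5′ to 3′ on the strand of the gene. Capitals mark the palindrome GTCTAGAC, to which SMAD3 and SMAD4 bind, and the GC-rich element GGCGCC, to which SMAD1 and SMAD5 bind. Each of these motifs reads the same on both strands and they do not overlap each other.
SMAD6 (chr15:66701986-66702235, plus strand): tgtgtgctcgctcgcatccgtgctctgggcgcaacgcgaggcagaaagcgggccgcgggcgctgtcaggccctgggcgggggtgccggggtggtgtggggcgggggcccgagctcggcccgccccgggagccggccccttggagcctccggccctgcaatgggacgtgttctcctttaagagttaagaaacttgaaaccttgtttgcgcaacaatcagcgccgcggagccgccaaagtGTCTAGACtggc
BAMBI (chr10:28677271-28677520, plus strand): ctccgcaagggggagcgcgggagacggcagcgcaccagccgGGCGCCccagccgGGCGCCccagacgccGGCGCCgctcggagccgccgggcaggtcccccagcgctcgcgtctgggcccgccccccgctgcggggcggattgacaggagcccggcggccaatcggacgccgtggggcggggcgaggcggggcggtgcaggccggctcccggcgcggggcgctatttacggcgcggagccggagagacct
ID1 (chr20:31605039-31605288, plus strand): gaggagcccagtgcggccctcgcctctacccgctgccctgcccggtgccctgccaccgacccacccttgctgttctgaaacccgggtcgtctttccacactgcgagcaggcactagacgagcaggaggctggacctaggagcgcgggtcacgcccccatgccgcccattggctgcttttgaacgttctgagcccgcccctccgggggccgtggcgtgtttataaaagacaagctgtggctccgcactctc
ID3 (chr1:23559502-23559751, minus strand): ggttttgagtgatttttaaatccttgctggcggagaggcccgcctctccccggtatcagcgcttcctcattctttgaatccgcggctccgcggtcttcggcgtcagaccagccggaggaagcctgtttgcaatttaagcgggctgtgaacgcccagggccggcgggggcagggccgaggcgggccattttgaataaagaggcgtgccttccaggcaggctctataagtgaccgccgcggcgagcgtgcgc

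SMAD6 had 1 GTCTAGAC, which began 12 bases before the start. BAMBI had 3 GGCGCC, which began 209, 196 and 181 bases before it. ID1 and ID3 had neither motif in this window, and motifs further away would not be seen. Over windows of 300 bases (250 before the start and 50 after it), GTCTAGAC was in 71 of 35116 RefSeq promoters (0.202%) and GGCGCC in 6748 (19.2%). Of the 9 members, 8 had an entry, and BMP2 had none. The window of the first BMP4 entry held 2 GGCGCC and that of the first GREM1 entry also held 2. Thus GGCGCC stood before genes that were lower and before 1 that was higher at 8 h. The window of ID2, which was also lower at 8 h, held neither GTCTAGAC nor GGCGCC. The same was true of ID4 and of the other entries of BMP4 and GREM1. The E-box, written CANNTG, is the motif of the E proteins that ID proteins hold back. It was in the windows of SMAD6, ID2, ID4 and the third entry of BMP4, and in 68.7% of all promoters. These matches describe the letters only and are not sites of binding.

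BMP4 and BMP2 encode closely related ligands, of which BMP4 was lower at 8 h and BMP2 did not pass. BMP4 (chromosome 14, 54416454 to 54425479, minus strand, hg19) had 451 and 449.7 normalized counts at 4 h against 290.5 and 306 at 8 h. Both 8 h libraries were well below the 4 h pair, whose values nearly coincided. The mean fell from 451 ± 1.23 to 298 ± 10.7 (SD, n = 2 each), a log2FC of −0.60 ± 0.11 (SE, edgeR adjusted p = 0.000284). BMP2 (chromosome 20, 6748333 to 6760893, plus strand) had 114 and 128 normalized counts at 4 h against 153.4 and 152.8 at 8 h. The groups did not overlap, and the log2FC of 0.34 (95% interval −0.01 to 0.69) did not pass (edgeR adjusted p = 0.113). With the abundance offset it did, with a log2FC of 0.46 (edgeR adjusted p = 0.0349).

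GREM1 (chromosome 15, 33010205 to 33037307, plus strand) encodes gremlin 1, which keeps BMP2 and BMP4 from their receptors, and it was the member with the most reads. It had 4448 and 4104 normalized counts at 4 h against 6648 and 6122 at 8 h, and more reads than 98.2% of the genes tested. Both 8 h libraries were above both 4 h libraries by far more than the replicates differed. The mean rose from 4276 ± 243 to 6385 ± 372 (SD, n = 2 each), a log2FC of 0.58 ± 0.07 (SE, edgeR adjusted p = 6.2e-06). The call held in all 12 alternatives, with log2FC from 0.41 to 0.64. GREM1-AS1 overlaps GREM1 on the other strand and is no gene of the count files, and the sources used here do not say whether counting used the strand. The same holds for ID2-AS1 at ID2, LNC-LBCS at ID4 and an unnamed gene at BMP4. At SMAD6 an unnamed gene overlaps on the same strand and is likewise no gene of the count files.

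BAMBI (chromosome 10, 28966439 to 28971861, plus strand) encodes a transmembrane protein that resembles a type I receptor without a kinase domain and so dampens BMP and TGF-beta signals. It had 1536 and 1577 normalized counts at 4 h against 919 and 881 at 8 h. The replicates were close at each time and the times far apart. The mean fell from 1556 ± 28.4 to 900.2 ± 27.2 (SD, n = 2 each), a log2FC of −0.79 ± 0.08 (SE, edgeR adjusted p = 4.42e-07), which made BAMBI the member with the smallest adjusted p. Its log2FC was between −0.89 and −0.76 in the 12 alternatives.

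SMAD6 (chromosome 15, 66994574 to 67075187, plus strand) encodes an inhibitory SMAD that competes with the signalling SMADs of the BMP branch. It was a gene of few reads, with 79 and 97 raw counts at 4 h against 34 and 26 at 8 h, or 70.9, 87.9, 34.8 and 32.3 normalized counts. The 8 h libraries were alike and both were below the lower 4 h library. The mean fell from 79.4 ± 12.1 to 33.5 ± 1.74 (SD, n = 2 each), a log2FC of −1.24 ± 0.25 (SE, edgeR adjusted p = 0.000597) and the largest change in size among the 8 tested members. It was a DEG in all 12 alternatives, at log2FC from −1.39 to −1.06. SMAD7, the inhibitory SMAD shared with the TGF-beta branch, went from 448 ± 36.4 to 378 ± 31.5 (SD, n = 2 each) and did not pass (log2FC −0.24, edgeR adjusted p = 0.0958).

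The ID genes did not move as a family. ID3 (chromosome 1, 23884417 to 23885992, minus strand) had 503 and 579 normalized counts at 4 h against 676 and 844 at 8 h. All values at 8 h were above those at 4 h, and the 8 h replicates were the further apart. The mean rose from 541 ± 53.6 to 759.8 ± 119 (SD, n = 2 each), a log2FC of 0.48 ± 0.11 (SE, edgeR adjusted p = 0.00175). Without replicate 1 of 4 h the log2FC was 0.38 and no longer passed (edgeR adjusted p = 0.0598), and without replicate 2 of 8 h it was 0.32 (edgeR adjusted p = 0.0166).

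ID1 (chromosome 20, 30193086 to 30194318, plus strand) had 318 and 402 normalized counts at 4 h against 309 and 352 at 8 h, so that the times overlapped. Its log2FC of −0.13 (95% interval −0.40 to 0.14, edgeR adjusted p = 0.462) did not pass in any of the 12 alternatives, and it was 0.05 without replicate 2 of 4 h. The upper end of this interval was below the log2FC of ID3, although the difference between the genes was not tested.

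ID2 (chromosome 2, 8818975 to 8824591, plus strand) had the fewest reads of the members tested, with 26 and 44 raw counts at 4 h against 17 and 9 at 8 h. The normalized counts were 23.3 and 39.9 at 4 h against 17.4 and 11.2 at 8 h, with the lower 4 h library not far from the higher 8 h one. The mean fell from 31.6 ± 11.7 to 14.3 ± 4.39 (SD, n = 2 each), a log2FC of −1.11 ± 0.39 (SE, edgeR adjusted p = 0.03). The call was lost in 4 of 12 alternatives: with DESeq2 (adjusted p = 0.155), with the abundance offset (edgeR adjusted p = 0.0747), without replicate 2 of 4 h (log2FC −0.68, edgeR adjusted p = 0.346) and without replicate 2 of 8 h (log2FC −0.86, edgeR adjusted p = 0.112). ID4 (chromosome 6, 19837601 to 19842428, plus strand) had 0 counts in each library, which allows up to 3 counts, or between 2.69 and 3.73 normalized counts, and no comparison was made.

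**Figure D2:**
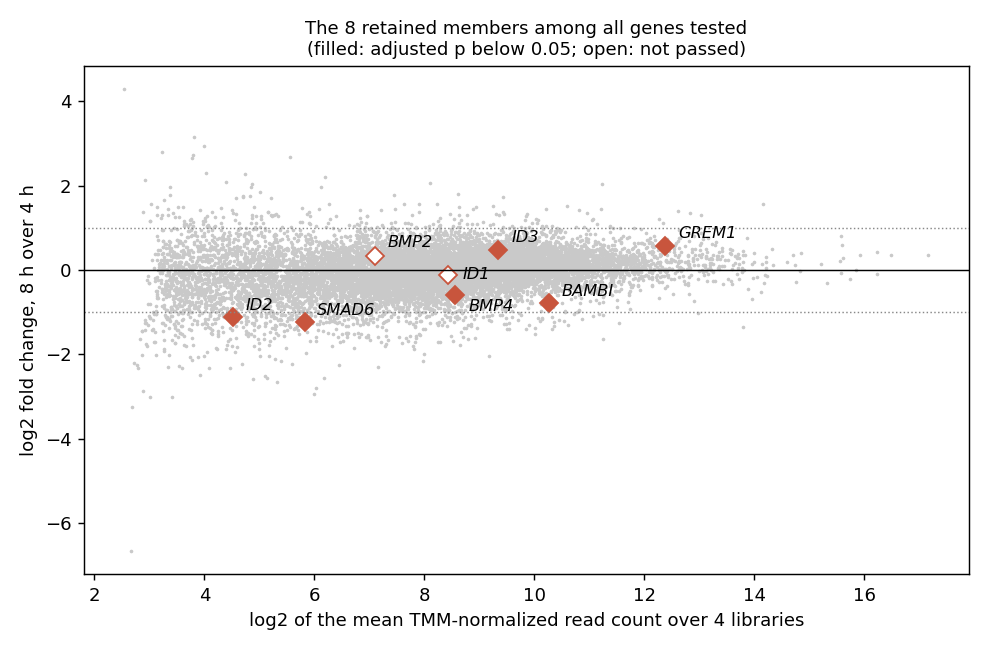
Each grey point is 1 of the 12559 genes tested, by the log2 of its mean normalized count (x axis) and its log2 fold change of 8 h over 4 h (y axis); dotted lines mark the DEG threshold. The 8 tested members are diamonds, of which SMAD6 and ID2 lie beyond the lower threshold and ID1 and BMP2 (open) did not pass.

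Ratios between members of the same library need no scaling between libraries. The reads of ID1 to ID4 together numbered 941 and 1126 at 4 h against 980 and 971 at 8 h. ID3 held 59.6% (95% Wilson interval 56.4 to 62.7) and 56.7% (53.8 to 59.6) of them at 4 h, and 67.4% (64.5 to 70.3) and 69.9% (67.0 to 72.7) at 8 h. The intervals of the 4 h and 8 h libraries did not overlap, and they cover counting error only. The share of ID3 was on average 10.5 percentage points higher at 8 h. ID1 went from 37.6% and 39.3% of the ID reads to 30.8% and 29.1%, and ID2 from 2.76% and 3.91% to 1.73% and 0.93%. With 2 libraries per time an exact two-sided permutation test cannot give a p below 0.333, so these shares are given without a test.

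The same was done for 5 pairs of genes, chosen after their values were seen. The ratio of ID1 to ID3 counts was 0.63 and 0.69 at 4 h against 0.46 and 0.42 at 8 h. BMP4 had 3.96 and 3.52 times the counts of BMP2 at 4 h, and 1.89 and 2.00 times at 8 h. The number of BMP4 reads per GREM1 read, a ligand against its antagonist, was 0.101 and 0.11 at 4 h against 0.044 and 0.05 at 8 h, a difference of −1.17 on the log2 scale where replicates differed by at most 0.19. SMAD6 to SMAD7 was 0.168 and 0.186 at 4 h against 0.087 and 0.091 at 8 h. BAMBI to ID3, both known as targets of the pathway, was 3.05 and 2.72 at 4 h against 1.36 and 1.04 at 8 h. In each of the 5 pairs the 8 h ratios were both lower than the 4 h ratios. The gap between the times was larger than that between replicates. The shared direction follows from which gene was put first in each pair and has no weight of its own.

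**Figure D3:**
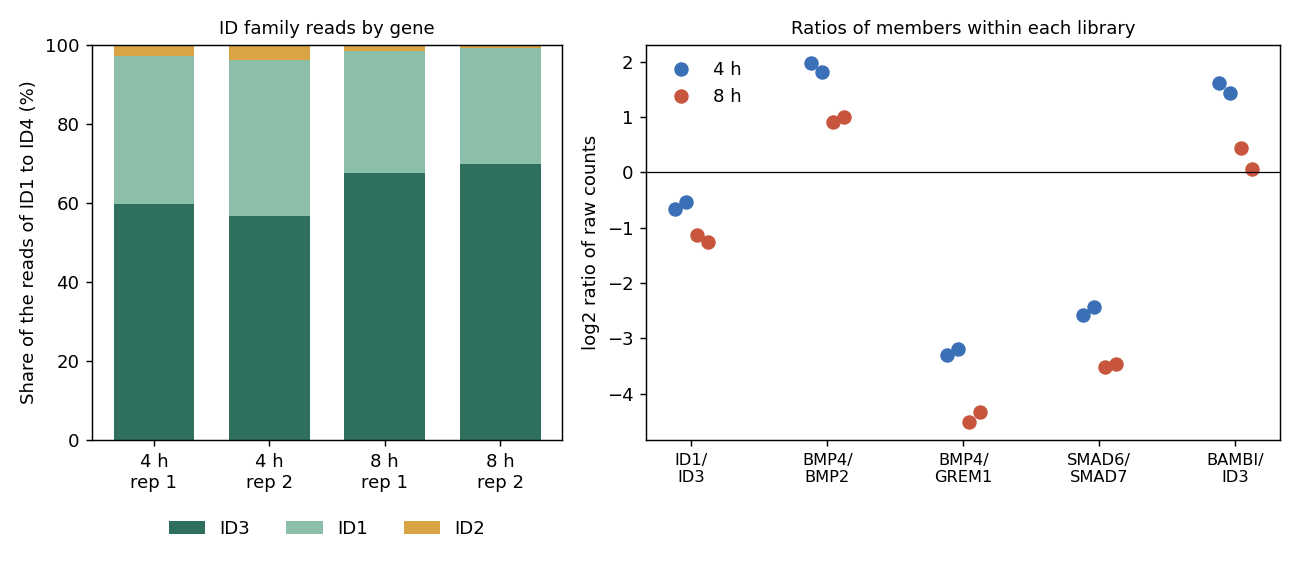
Left, the share (%) of the reads of ID1 to ID4 that each gene held in each of the 4 libraries, with ID3 at 59.6% and 56.7% at 4 h against 67.4% and 69.9% at 8 h (ID4 had no read). Right, the log2 ratio of raw counts for 5 pairs of genes in each library (blue 4 h, red 8 h). The 8 h points of each pair lie below the 4 h points, a direction set by which gene was put first.

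The levels of the members were set in order by normalized counts per kilobase of the canonical GENCODE transcript, since counts alone rise with the length of a gene. BAMBI had 521 to 932 per kilobase over the 4 libraries and ID3 530 to 888, and these ranges overlapped. GREM1 had 282 to 456 and ID1 314 to 409, which overlapped each other and lay below the first pair. The place of GREM1 rests on the 14575 bases of its canonical transcript. BMP4 followed with 150.4 to 234 and BMP2 with 32.1 to 43.3, each clear of its neighbours. ID2 (8.61 to 30.7) and SMAD6 (8.44 to 23.0) overlapped at the low end, and ID4 was at 0. At 8 h ID3 stood above BAMBI, at 800 against 532 per kilobase, whereas at 4 h it stood below, at 570 against 920. This change of order rests on the transcript lengths, 950 bases for ID3 and 1691 for BAMBI. In raw counts BAMBI stayed above ID3 at 8 h, at 1.36 and 1.04 times.

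The rest of the pathway was followed in a list of 56 other genes. Of these, 36 were tested, 20 did not pass the CPM filter, and 11 of the 20 had no read in any library. The genes without a read include NBL1, which overlaps the listed genes MICOS10 and MICOS10-NBL1 on the same strand. Whether this overlap led to its lack of reads was not tested. Among the 36, 8 passed as higher and 6 as lower, with the background of 19.9% and 18.8% given above. The DEGs were FST and ACVR2B (higher) and ATOH8 (lower). FST was just short of the DEG threshold with library size alone (log2FC 0.997) and with the abundance offset (log2FC 0.978), and passed the test in both. The median log2FC of the 36 was 0.07.

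Ligands were mostly silent: of the 14 listed, BMP2 and BMP4 included, 5 were tested and 6 had no read at all, among them BMP5 and BMP7. GDF6, a ligand of the same family, had the highest level of the ligands per kilobase (mean of 320 over the 4 libraries), and fell from 1411 ± 136 to 962 ± 168 normalized counts (n = 2 each, ± SD, log2FC −0.56, edgeR adjusted p = 0.000313). BMP6, the ligand best known for its part in iron balance, rose from 119 ± 16.4 to 186 ± 19.2 (SD, n = 2 each, log2FC 0.65, edgeR adjusted p = 0.00481), and did not pass without replicate 2 of 4 h (log2FC 0.52, edgeR adjusted p = 0.0891). The counts of ligands thus went both ways, with BMP4 and GDF6 lower and BMP6 higher. BMP6 overlaps the listed genes TXNDC5 and BLOC1S5-TXNDC5 on the other strand, and their part in its counts was not tested.

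Of 7 receptor genes, 6 were tested, 3 passed as higher and 1 as lower, beside 19.9% and 18.8% of all genes. BMPR2, the type II receptor of BMPs, rose by a log2FC of 0.33 (edgeR adjusted p = 0.00505) and the type I receptor ACVR1, the receptor gene with the highest level per kilobase, by 0.26 (edgeR adjusted p = 0.023). BMPR1A and BMPR1B, the other type I receptors with reads, had 26.6 to 52.2 normalized counts and did not pass. The activin and BMP type II receptors went opposite ways, with ACVR2A at a log2FC of −0.55 (edgeR adjusted p = 0.0472) and ACVR2B at 1.72 (edgeR adjusted p = 0.00216). ACVR2B rested on 9 and 18 counts at 4 h against 51 and 22 at 8 h, and it overlaps the listed gene ACVR2B-AS1 on the other strand, while ACVR2A overlaps ORC4. It did not pass without replicate 1 of 4 h (log2FC 1.29, edgeR adjusted p = 0.0549) or without replicate 1 of 8 h (log2FC 1.16, edgeR adjusted p = 0.0507). The call of BMPR2 was lost without replicate 1 of 4 h and without replicate 2 of 8 h (edgeR adjusted p = 0.0571 and 0.0526). The calls of ACVR1 and ACVR2A were lost in 6 and 5 of 12 alternatives, among them those without either 4 h library and without replicate 2 of 8 h, where ACVR2A had a log2FC of −0.29 (edgeR adjusted p = 0.326). RGMB, the most abundant co-receptor per kilobase, did not pass (log2FC 0.20, edgeR adjusted p = 0.0758). It overlaps the listed gene RGMB-AS1 on the other strand.

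FST, GREM1, FSTL3 and BMPER were the secreted antagonists that passed, all as higher. They were 4 of the 9 tested, with 0 lower, where 19.9% and 18.8% of all genes passed in these directions, and 7 of the 9 had both 8 h libraries above both 4 h libraries, against 34.8% of all genes. The median log2FC was 0.44 for the 8 without GREM1, and nothing particular to the group is read from these counts. FST, which encodes the activin-binding follistatin, rose from 1425 ± 98.2 to 3058 ± 209 normalized counts (n = 2 each, ± SD), a log2FC of 1.10 ± 0.08 (SE, edgeR adjusted p = 7.57e-09). FSTL3, a relative of follistatin, rose from 2278 ± 168 to 3854 ± 727 (SD, n = 2 each, log2FC 0.76, edgeR adjusted p = 7.82e-06). BMPER, which binds BMPs outside the cell, had 24.5 to 46.0 normalized counts and a log2FC of 0.78 (edgeR adjusted p = 0.0403), a call lost in 5 of 12 alternatives. NOG (noggin) had a log2FC of 0.83 with 16, 16, 24 and 22 counts and did not pass (edgeR adjusted p = 0.0787). FSTL1, the antagonist with the highest level per kilobase, had a log2FC of 0.04 (95% interval −0.10 to 0.18, edgeR adjusted p = 0.66). The members of this group are not all specific for BMPs, since follistatin and FSTL3 bind activins most tightly.

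Of the 4 signalling SMADs, 1 passed and was lower, where 18.8% of all genes tested passed as lower. Nothing particular to the group is read from this count. SMAD5, the one with the highest level per kilobase, fell from 909 ± 85.3 to 727 ± 40.2 normalized counts (n = 2 each, ± SD, log2FC −0.32, edgeR adjusted p = 0.0101), a call lost without replicate 1 of 4 h (edgeR adjusted p = 0.178). SMAD5 overlaps the listed gene SMAD5-AS1 on the other strand. SMAD1, SMAD9 and SMAD4 had log2FC of −0.22, −0.46 and −0.12 and did not pass. The ubiquitin ligase genes SMURF1 and SMURF2, whose products mark SMADs for destruction, did not pass either (log2FC 0.21 and 0.12). The corepressor SKIL was lower (log2FC −0.27, edgeR adjusted p = 0.0361, lost in 4 of 12 alternatives) and SKI did not pass (log2FC 0.07, edgeR adjusted p = 0.666).

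Among the partners of the ID proteins, TCF4 was lower (log2FC −0.37, edgeR adjusted p = 0.0406, lost in 5 of 12 alternatives), while TCF3 and TCF12 had 0.16 and 0.03 and did not pass. Of 6 other targets of BMP signalling, 4 were tested. ATOH8, a helix-loop-helix factor gene that BMPs induce in several cell types, had 310 and 368 normalized counts at 4 h against 141 and 150.3 at 8 h, the same direction as BAMBI and SMAD6. Its mean fell from 339 ± 41.3 to 146 ± 6.51 (SD, n = 2 each), a log2FC of −1.22 ± 0.14 (SE, edgeR adjusted p = 1.84e-06), and the call held in all 12 alternatives. HEY1, also a Notch target, rested on 26 to 40 counts and had a log2FC of 0.81 (edgeR adjusted p = 0.0388, lost in 6 of 12 alternatives). MSX1, the gene with the highest level per kilobase in this group, had 0.50 and did not pass (edgeR adjusted p = 0.0526). The known targets thus did not share a direction, with BAMBI, SMAD6, ID2 and ATOH8 lower, ID3 and HEY1 higher, and ID1, SMAD7, MSX1 and RUNX2 (log2FC −0.09, edgeR adjusted p = 0.658) not passing.

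The calls of BMPER, SKIL, TCF4 and HEY1 were each lost without either of the 4 h libraries. Those of BMPER and HEY1 were also lost without replicate 2 of 8 h, and those of SKIL and TCF4 without replicate 1 of 8 h. Their edgeR adjusted p in these fits lay between 0.0689 (SKIL) and 0.263 (SKIL).

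**Figure D4:**
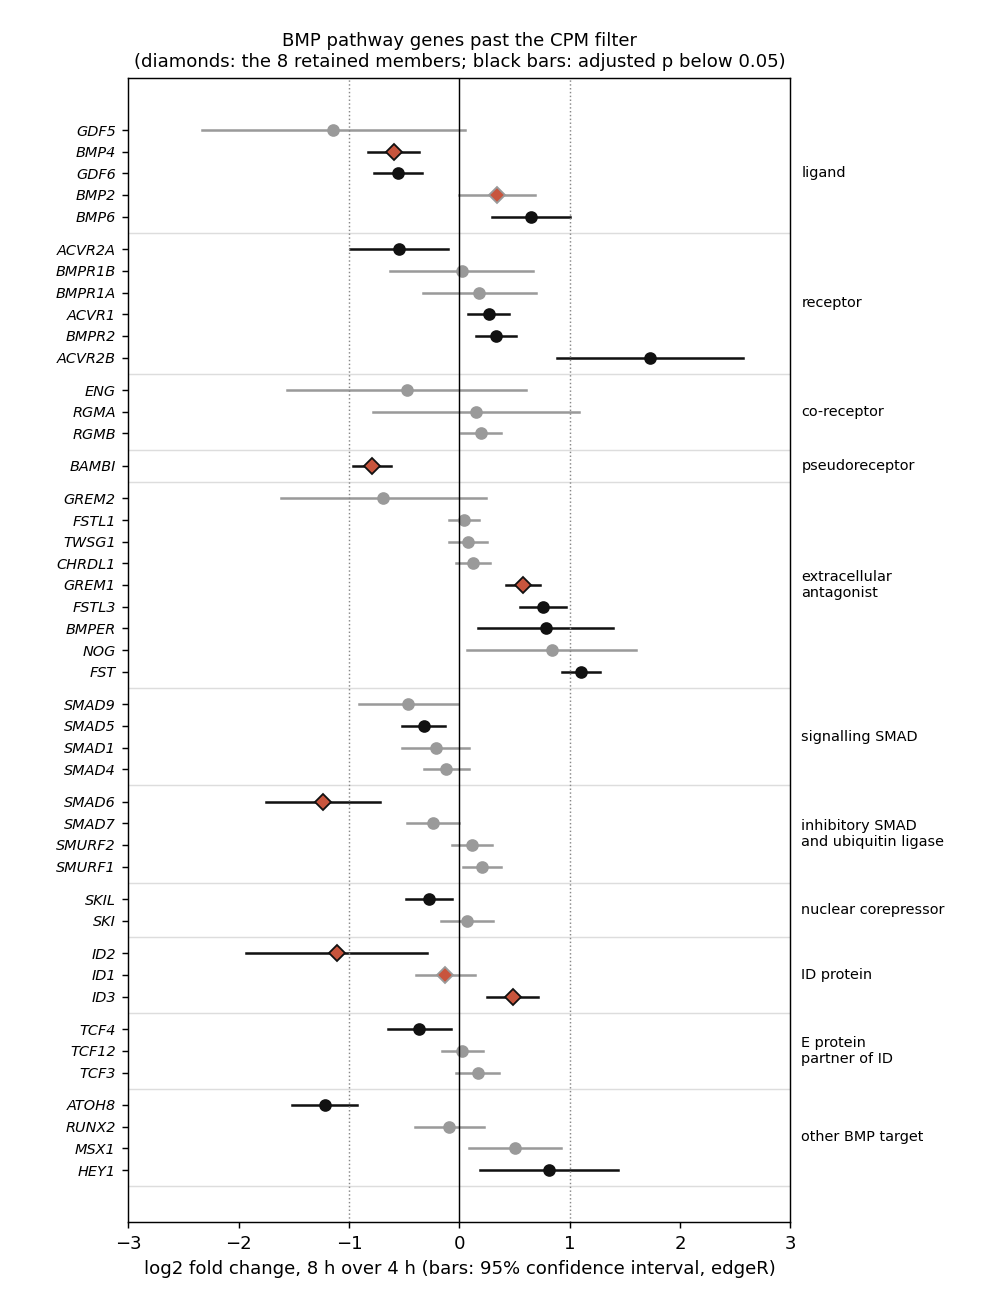
The log2 fold change of 8 h over 4 h (x axis) of the 44 tested genes of the pathway list, by role, with 95% confidence intervals; diamonds are the 8 tested members and black bars the genes that passed. The extracellular antagonists that passed all lie above 0, of the genes that passed SMAD6, ID2 and ATOH8 lie below −1, and the ligands and ID genes lie on both sides.

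For each tested member, the gene outside the pathway list with the most similar pattern was sought among 9340 genes that averaged 100 normalized counts or more, as the smallest Euclidean distance between the 4 log2-CPM values, each set centred on its mean. The nearest gene was MYH10 for BMP4 (distance 0.0176), BDP1 for BMP2 (0.0163), HYOU1 for GREM1 (0.0178), LPCAT1 for BAMBI (0.0252) and TIGD7 for SMAD6 (0.0643). It was ZNF358 for ID3 (0.0248), MLLT1 for ID1 (0.0572) and RPS25 for ID2 (0.283). With 4 values per gene and this many genes, a close match has no weight of its own. The distance of ID2 was the largest of the 8.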

How the data were processed

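RNA-Seq libraries of polyadenylated RNA from hTERT RPE-1 cells (TruSeq Stranded mRNA, single reads of 75 bases) were compared between 2 libraries at 4 h and 2 at 8 h of merbarone, as given by the sample titles. Reads were aligned by the authors to hg19 with Bowtie 1.2.0 (the version in the submitters' processing notes), keeping those with 1 genomic position. The authors then counted reads per gene (NCBI Gene ID) and deposited the raw counts, without normalization. Bowtie does not split reads over splice junctions, and reads from near-identical copies are lost by the rule on positions. The annotation, the counting tool and the use of strand are not given in the sources used here.

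Symbols came from RefSeq (23308 of 23459 IDs), and positions and transcript lengths from GENCODE on GRCh37, the assembly of hg19. Genes that exceeded 1 CPM in 2 or more libraries (12559) were normalized by TMM and tested with edgeR 4.0.16 in R 4.3.3 (glmQLFit, time as the only term, p-values adjusted over all genes). The standard error is the size of the log2FC over the square root of F. The test was tried on simulated counts with changes larger than that of any member. This trial therefore does not show how well changes of the members' size are found. Alternatives were limma-voom (limma 3.58.1, the study's test), DESeq2 1.42.0, library size alone, RLE factors, no CPM filter, a CPM of 2, an abundance offset (loess, span 0.5), leaving out each library, and a block for the replicate number. The named genes are the 9 members, the pathway genes that passed or had the highest level of their role, and the nearest gene of each member. Genes of each role that did not pass, and the pairs in the ratios, were named after their values were seen. The members and lists were chosen with earlier results of these data known. Nothing in the labels says whether replicates were separate cultures, and the study calls them biological replicates. If they were not, the p-values cover technical spread only.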

Additional observations from a re-analysis of the deposited data

How the results depend on the processing

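With 2 libraries per time, the test leans on a spread estimated over many genes (biological coefficient of variation 6.52%), and genes with few reads (ID2, SMAD6, ACVR2B) have wide intervals. When 1 library is left out, its time has a lone sample, which is assumed to vary like the other group. The number of members that passed was 6 or 5 under every one of the 12 alternatives, and BMP4, BAMBI, GREM1 and SMAD6 passed in all of them. The number of member DEGs was 1 in place of 2 with DESeq2 and with the abundance offset, and 1 to 2 without 1 library. In these cases SMAD6 remained and ID2 was lost. The number of other pathway genes that passed was 14, but 8 with DESeq2 and 5 to 16 without 1 library. The cause of these differences was not tested. Over all genes, 4867 passed, and 3114 to 4828 without 1 library. DEGs numbered 669, and from 507 (DESeq2) to 768 under the alternatives. The log2FC of ID1 was −0.29 to 0.054 without 1 library, with the change of sign without replicate 2 of 4 h, and did not pass in any alternative.

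The times share replicate numbers. Libraries with the same number deviated from their group means with a correlation of 0.05 across genes, and there are only 2 such pairs, so the numbers were not taken to pair the libraries. With the replicate number as a block, 5493 genes passed, 6 members passed and 17 other pathway genes passed, and the log2FC of ID3 was 0.48 and that of ID2 −1.08. The share of ID3 among ID reads, 10.5 percentage points higher at 8 h, was 10.15 points higher when reads were taken per kilobase, and 9.07 to 11.9 points higher without 1 library.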
